A study of Oryza sativa with 7 samples.

Results

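Of 37858 rice loci in the count data, 11009 (29.1%) were listed with exon bin 001 and no other bin. The rule for these single-bin loci reads the number of listed bins and no count. They are described here in 4 tissues of the rice cultivar Ilmi. An exon bin is a piece of annotated exon with a read count of its own. Leaf and root were 14 days old. Panicle samples were flowers not yet pollinated, on panicles 0.5 to 1.5 cm long, and seed was collected 20 to 30 days after pollination (21 days in the sample names). All 4 tissues came from this 1 cultivar with no treatment named in the labels. Leaf, panicle and seed had 2 RNA-seq libraries each and root had 1, so the spread of root was not measured. By its title, the series was made to study alternative splicing. The labels do not say whether libraries of a tissue came from separate plants, so the p-values cover the spread between libraries only, and that spread may be technical.

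Genes without introns are transcribed into RNA that needs no splicing, so no exon can be left out or exchanged in their messages. Plant genomes hold many of them, and they include whole families such as prolamin seed storage proteins, SAUR auxin-response genes and most pentatricopeptide repeat genes. A single exon bin is a property of the annotation used for counting, and it was not tested here whether each of these loci has a single exon in the plant. Of the 11009 IDs, 1 was paired with a gene in the RefSeq gene table for ASM3414082v1, so the loci appear by ID, without names or roles. For the same reason the tissue labels were not checked against marker genes. In whole tissues, fewer cells of a type and less RNA per cell cannot be told apart.

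Single-bin loci were counted less than loci of more bins. Their median level was 0.624 CPM (counts scaled to the library's total of largest-bin counts, with TMM factors between libraries), against 1.50 CPM in the 6209 loci of exactly 2 bins and 11.5 CPM in the 20640 loci of 3 or more. Each locus is represented by its largest bin, which for a single-bin locus is the locus itself. Bin lengths are not in the tables, so levels of different loci compare counts and not transcripts per length. No library had a count for 2628 single-bin loci (23.9%), against 19.9% of loci of 2 bins and 7.50% of those of 3 or more. The upper end differed less. At the 99th percentile single-bin loci had 208 CPM, and 21 of them had a mean of 1000 CPM or more, compared with 10 of the loci of 2 bins and 46 of those of 3 or more.

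**Figure D1:**
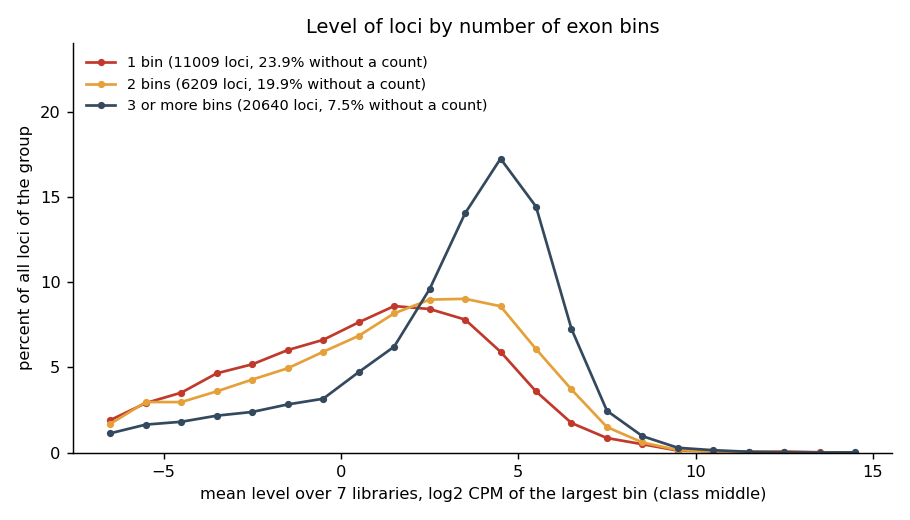
Distribution of the mean level over 7 libraries for loci of 1, 2 and 3 or more exon bins; the horizontal axis is log2 CPM of the largest bin in classes of a factor of 2, the vertical axis the percent of all loci of that group. Loci without a count (23.9%, 19.9% and 7.50%) are outside the plot, and the single-bin curve lies furthest to the left.

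The 2 libraries of a tissue differed from each other by bin number, and this touches every result below. Among loci at 10 CPM or more in leaf, the 1817 single-bin loci had a median log2 ratio of leaf 2 over leaf 1 of 0.29, and 70.8% of them were higher in leaf 2. Loci of 2 bins had a median of 0.11, loci of 3 to 4 bins -0.01, loci of 5 to 9 bins -0.10 and loci of 10 or more bins -0.18. The ratio fell with bin number in the other 2 replicated tissues as well. In seed it went from 0.34 in 1614 single-bin loci to -0.25 in loci of 10 or more bins, and in panicle from 0.19 in 1513 single-bin loci to -0.06. Within classes of equal level the single-bin loci had the higher median in 6 of 6 classes of 20 or more loci in each of the 3 tissues. The mean log2 ratio of single-bin loci exceeded that of loci with 2 or more bins at matched level by 0.38 in leaf, 0.19 in panicle and 0.54 in seed, on the log2(CPM + 0.5) scale. Spread around the median was also larger for single-bin loci at matched level, with a mean absolute log2 deviation of 0.49 against 0.41 in leaf, 0.54 against 0.37 in panicle and 1.04 against 0.76 in seed. The share of counts that loci of exactly 2 bins had in their larger bin, a measure of how counts spread over bins, was 67.6% in leaf 1 and 71.1% in leaf 2, 67.9% in seed 1 and 75.1% in seed 2, 72.8% in panicle 1 and 71.5% in panicle 2, and 68.0% in the root library. It was higher in library 2 of leaf and seed and not of panicle, and its part in the difference was not tested.

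**Figure D2:**
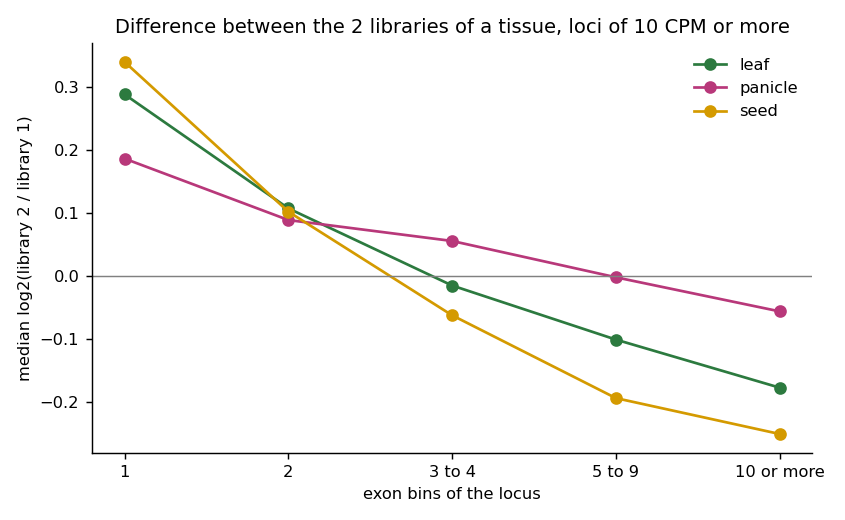
Median log2 ratio of library 2 over library 1 in leaf, panicle and seed (vertical axis) for loci of 10 CPM or more, grouped by number of exon bins (horizontal axis). All 3 lines fall from left to right, from 0.29, 0.19 and 0.34 in single-bin loci to -0.18, -0.06 and -0.25 in loci of 10 or more bins.

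Single-bin loci held a small part of all bin counts, and the part was largest in seed. They took 6.87% of the counts of seed 1 and 11.6% of seed 2. The panicle libraries had 4.56% and 5.03%, the root library 4.53%, and leaf 1 and leaf 2 had 3.45% and 5.40%. Both seed libraries lay above the 5 libraries of the other tissues. Seed had a mean of 9.23% ± 3.33 (SD, n = 2), panicle of 4.80% ± 0.331 (SD, n = 2) and leaf of 4.43% ± 1.38 (SD, n = 2). The test found no difference among the 4 tissues beyond the spread between libraries (exact permutation test of the F statistic over 630 assignments of the 7 libraries, p = 0.276; the smallest p this design can give is 0.00952). The Benjamini-Hochberg adjusted p over 4 such tests was also 0.276. Counting error is small beside this spread, with a 95% Wilson interval of 4.52% to 4.54% for the single root library, which covers counting error only. With only the largest bin of each locus in the total, the single-bin share came to 24.6% ± 5.16 (SD, n = 2) for seed, 14.1% ± 0.764 (SD, n = 2) for panicle, 13.6% ± 2.60 (SD, n = 2) for leaf and 14.9% for the root library (exact permutation test, p = 0.238).

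The share of seed rested on a few loci. The 10 most counted single-bin loci of seed held 52.8% and 58.4% of all single-bin counts in the seed libraries. The same number of loci held 22.8% of leaf 1, 29.3% of leaf 2, 18.9% of root, 12.5% of panicle 1 and 11.7% of panicle 2. Without the 10 most counted of each tissue, the single-bin share of the remaining bin counts was 3.15% for seed 1 and 4.92% for seed 2. The other 5 libraries ranged from 2.58% (leaf 1) to 4.42% (panicle 2). Seed then no longer stood above the other tissues (exact permutation test, p = 0.705). This exclusion was chosen after the values were seen. Of the 100 most counted loci of seed 37 were single-bin, as were 24 of panicle, 21 of root and 13 of leaf, against 29.1% of all loci. Loci are ranked here by their largest bin, which leaves out part of the counts of a locus with several bins.

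Between 3628 and 4363 single-bin loci were detected per library at 1 CPM or more. The panicle libraries had 3628 and 3765, the seed libraries 4021 and 4167, the root library 4031, and the leaf libraries 4165 and 4363. Panicle had the fewest, and its libraries did not overlap with those of any other tissue. This order depended on the scaling between libraries: without TMM factors the panicle libraries had 4058 and 4030, inside the range of the others, which ran from 3889 to 4189. The test of the number at 1 CPM among tissues did not pass the threshold (exact permutation test, p = 0.0857, adjusted p = 0.229). The number of loci with 1 or more counts was 6856 in leaf 2, the deepest library, and 5789 to 6149 in the other 6. At the depth of the smallest library the expected numbers ranged from 5698 (panicle 2) to 5971 (leaf 2), and both panicle libraries were again the lowest. As a share of all members these detections were 33.0% to 39.6% per library, compared with 61.9% to 65.7% of loci with 2 or more bins.

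That gap to loci of several bins was much smaller at equal level. Loci of both kinds were put into classes of equal mean largest-bin CPM, each spanning a factor of 2, and the values of loci with 2 or more bins were weighted to the 8381 single-bin loci that had any count. At matched level, 43.3% to 52.1% of single-bin loci and 47.7% to 51.3% of loci with 2 or more bins reached 1 CPM in a library. In percentage points, the difference was -4.39 for panicle 1 and -3.15 for panicle 2, -3.02 for seed 1 and -1.32 for seed 2, -1.14 for root, and -0.60 for leaf 1 and 0.79 for leaf 2. Single-bin loci were thus lower in 6 of 7 libraries, with a mean difference of -1.83 ± 1.77 points (SD, n = 7). This SD spans 4 tissues, and the 7 libraries are not replicates of 1 condition. The test of this difference among tissues did not pass the threshold either (exact permutation test, p = 0.114, adjusted p = 0.229). Against loci of exactly 2 bins the mean difference was 0.86 points, with the sign turned. It was 6.85 points when the classes were made from the sum over bins.

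**Figure D3:**
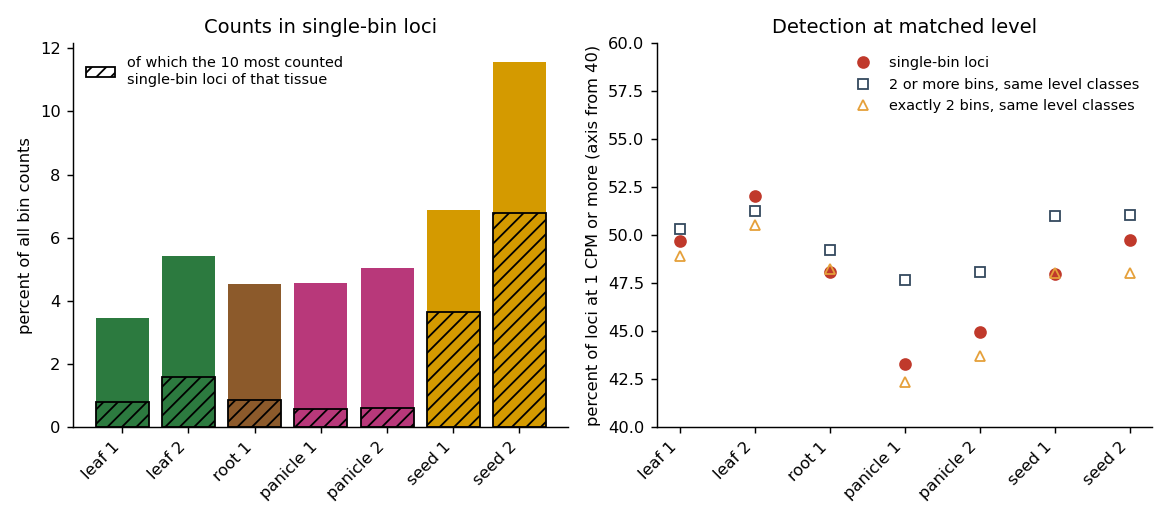
Left, percent of all bin counts in single-bin loci in each library, with the hatched part for the 10 most counted single-bin loci of that tissue. Right, percent of loci at 1 CPM or more in each library (axis from 40%) for single-bin loci and for loci of 2 or more and of exactly 2 bins weighted to the same level classes; both seed bars stand above the other 5 (6.87% and 11.6%), and the matched points of single-bin loci lie 4.39 points below to 0.79 points above those of loci with 2 or more bins.

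Across tissues, 2522 single-bin loci (22.9%) had a tissue mean of 1 CPM or more in all 4 tissues and 5052 (45.9%) in none. A further 1480 (13.4%) reached it in 1 tissue, which was seed for 483, root for 454, leaf for 297 and panicle for 246. Among loci with 2 or more bins 52.6% reached it in all 4 tissues and 23.2% in none. At matched level the shares came close to each other, with 30.1% of single-bin loci and 34.0% of loci with 2 or more bins in all 4 tissues, and 17.7% and 16.7% in 1 tissue.

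Restriction to a tissue was higher in single-bin loci than in loci with 2 or more bins mainly from 8 to 1024 CPM. It was measured as the percent of a locus's 4 tissue means that falls in the highest tissue, which is 25 for an even locus and 100 for a locus found in 1 tissue. From 1 to 8 CPM the median was 54.0% in 2714 single-bin loci and 52.7% in 5724 loci with 2 or more bins. From 8 to 64 CPM it was 48.6% in 1905 single-bin loci against 41.3%, and from 64 to 256 CPM 53.9% in 285 against 41.4%. At 256 CPM or more it was 97.0% in 88 single-bin loci, against 51.8% in 358 loci with 2 or more bins and 56.1% in 56 loci of exactly 2 bins. This last band has no upper limit, and levels within it were not matched. Against loci with 2 or more bins, its medians were 66.5% and 44.6% from 256 to 512 CPM. They were 97.9% and 64.7% from 512 to 1024 CPM, and 99.95% in 8 and 96.0% in 34 loci from 1024 to 2048 CPM. At matched level the difference of medians over the classes from 8 to 1024 CPM was 7.67 percentage points, and below 8 CPM it was -0.36. The classes above 1024 CPM hold few loci and are not in the first value. Against loci of exactly 2 bins the difference was 2.20 points over the classes from 8 to 512 CPM. Most of the difference was thus shared by loci of 2 bins, though the 2 values cover different classes. The difference to loci with 2 or more bins was 3.48 points with classes made from the sum over bins. These are descriptions of loci, which are not replicates, and were not tested.

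**Figure D4:**
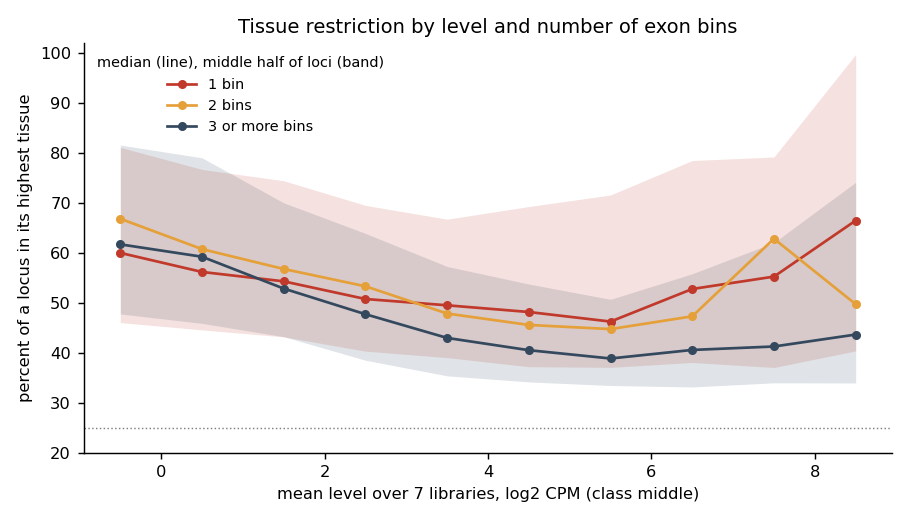
Percent of a locus's level in its highest tissue (vertical axis; the dotted line at 25 marks an even locus) against mean level (horizontal axis, log2 CPM in classes of a factor of 2) for loci of 1, 2 and 3 or more bins. Lines are medians and bands run from the lower to the upper quartile of loci of 1 and of 3 or more bins. The single-bin line lies above that of 3 or more bins from 2 CPM upwards.

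The most restricted of the abundant single-bin loci were mainly seed loci. Of the 88 single-bin loci at 256 CPM or more, 50 had at least 90% of their level in 1 tissue (56.8%), of which 36 in seed, 10 in leaf, 4 in root and 0 in panicle. Among the 358 loci with 2 or more bins in this band 106 did (29.6%), of which 42 in seed and 60 in leaf. Levels within the band were not matched between these groups. The band is cut on the mean over 7 libraries, of which root has 1 and each other tissue 2. A locus found only in root thus needs a higher level in its tissue to enter, so the numbers of root and of other tissues are not on the same footing. From 1 to 8 CPM, 340 single-bin loci were this restricted: 131 in root, 106 in seed, 64 in leaf and 39 in panicle. The 10 most counted single-bin loci of seed had 7212 to 33929 CPM there, and each had over 99.9% of its level in seed. Those of leaf had 1301 to 13937 CPM and those of root 1180 to 7632 CPM, with 7 and 6 of 10 over 90% restricted. Those of panicle had 683 to 3877 CPM, and none of the 10 was over 90% restricted.

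The most counted single-bin locus of each tissue showed these differences. In seed, Os07g0206500 had 22520 and 45339 CPM, with no count in leaf, 1.94 CPM in root and 1.58 and 0.258 CPM in panicle. Os05g0499100 followed with 38459 and 26569 CPM in seed and at most 0.645 CPM in any other library. Seed libraries lay far above all others at both loci, with seed 2 the higher at the first and seed 1 at the second. In leaf, Os09g0346500 had 8268 and 19607 CPM, and it was also found in seed (1092 and 551 CPM), panicle (98.3 and 310 CPM) and root (5.41 CPM). Os08g0104600 had 6708 and 10191 CPM in leaf and between 3.89 and 172 CPM elsewhere. Both leaf libraries were above every other library at these loci. In root, Os09g0409100 had 7632 CPM, with 2.90 and 2.70 CPM in leaf and no count in panicle or seed. Os02g0662000 had 3512 CPM in root and at most 6.66 CPM elsewhere. Root values rest on 1 library. In panicle, the most counted was Os02g0121300, a locus at a high level in all tissues: panicle had 3929 and 3825 CPM, seed 2808 and 2681, leaf 2225 and 2674, and root 1789. At Os08g0490900 the panicle libraries had 1179 and 1280 CPM, the leaf libraries 391 and 382, root 159, and the seed libraries 47.2 and 9.71.

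Some single-bin loci were nearly even across tissues. Among the 239 single-bin loci with a mean of 100 CPM or more over the 4 tissues, Os05g0126300 had the lowest share in its highest tissue, at 27.1%. Its libraries ran from 138 CPM in seed 1 to 196 CPM in seed 2, which covers the values of the other 5. Os03g0333200 was next at 28.5%, and its libraries ran from 123 CPM (leaf 1) to 203 CPM (seed 2), with both leaf libraries below the other 5.

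Each tissue had single-bin loci above all 3 others. A locus was called higher by edgeR's quasi-likelihood test at a Benjamini-Hochberg adjusted p under 0.05, over all 26097 loci kept by the low-count filter, and a fold change of 2 or more. The filter kept 5745 of the 11009 single-bin loci. There were 306 single-bin loci called above each other tissue in leaf (5.33% of the 5745, against 6.05% of all loci tested), 292 in root (5.08% against 4.36%), 155 in panicle (2.70% against 3.01%) and 183 in seed (3.19% against 3.07%). The shares of single-bin loci were near those of all loci. Their median level in that tissue was 72.1 CPM for the seed loci and 42.3 to 47.7 CPM for the others. The next highest tissue was under 1 CPM for 112 of the 183 seed loci (61.2%), 131 of the 292 root loci (44.9%), 73 of the 306 leaf loci (23.9%) and 12 of the 155 panicle loci (7.74%). The 183 seed loci held 4.97% and 9.22% of all bin counts in the seed libraries and at most 0.0202% in any other. The 306 leaf loci held 1.33% and 2.55% in leaf, the 292 root loci 1.67% in root, and the 155 panicle loci 0.624% and 0.790% in panicle. Because the sets were chosen on the same libraries, these levels and shares describe them and are not independent evidence. Counts of this kind moved with single libraries. Leaf had 183 such loci without leaf 1 and 115 without leaf 2. Root had 121 and 119 without the same libraries. Panicle had 25, 47, 87 and 39 without leaf 1, leaf 2, panicle 1 and panicle 2. Seed had 98 and 99 without leaf 1 and leaf 2, and 309 without seed 1.

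Leaf and panicle differed at 1679 of the 5745 single-bin loci (29.2%, against 31.4% of all loci tested). Of these 1177 were higher in leaf (background of 20.3% of all loci) and 502 higher in panicle (11.1%). At 8-fold or more, 881 were higher in leaf (15.3%, against 12.9% of all loci tested) and 130 in panicle (2.26% against 2.38%), so leaf had more such loci among all loci as well. Os03g0782200 had 535 and 1093 CPM in leaf and no count in the 5 libraries of the other tissues, at least 5563-fold above panicle (edgeR, adjusted p = 0.00082), and at least 3193-fold without leaf 2. Here and below, a ratio is of counts summed over the libraries of each tissue and divided by their summed scaled library sizes, which gives deeper libraries more weight than the fitted fold change does. A bound is such a ratio against 3 counts over all libraries of the tissue without a count. Os08g0101700 had 245 and 270 CPM in leaf, none in panicle or root, and 1.78 and 4.21 CPM in seed, at least 1570-fold above panicle (edgeR, adjusted p = 0.000582). At both loci the leaf libraries lay far above the other 5. In the other direction, Os01g0729400 had 61.5 and 167 CPM in panicle and 0.853 and 3.60 CPM in leaf, a log2 fold change of -5.56 (SE 0.80, edgeR adjusted p = 0.00283). Its ratio of summed counts, 38.2, was 21.9 without panicle 2, 59.4 without panicle 1 and 125 without leaf 2. Os04g0434500 had 64.0 and 138 CPM in panicle and 2.39 and 3.67 CPM in leaf, a log2 fold change of -5.02 (SE 0.54, edgeR adjusted p = 0.00102). At both loci the panicle libraries were apart from each other and still above all others. Leaving out leaf 1, leaf 2, panicle 1 or panicle 2 gave 780, 668, 860 or 928 calls. The share of calls higher in leaf, 70.1%, was then 93.7% without leaf 1 and 87.1% without leaf 2.

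Leaf and seed differed at 1613 single-bin loci (28.1%, against 29.0% of all loci), with 997 higher in leaf (background 16.2%) and 616 higher in seed (12.8%). At 8-fold or more the numbers were 620 (10.8%, against 8.30% of all loci) and 387 (6.74% against 5.87%). Os03g0782200, again with no count in seed, exceeded seed by at least 2530-fold (edgeR, adjusted p = 0.0015), or 1452-fold without leaf 2. Os08g0460000 had 1351 and 2293 CPM in leaf, 90.1 and 20.6 in panicle, none in root, and 1 count in seed 2. Leaf over seed gave a ratio of 16471 (95% interval from counting error 2956 to 650580; edgeR, adjusted p = 0.00142). The ratio was 6244 if seed 1 was left out, and at least 3409 if seed 2 was. Towards seed, Os07g0206500 was at least 211062-fold higher (edgeR, adjusted p = 0.00146). Os11g0582400 had 4592 and 33117 CPM in seed and no count in leaf or root, at least 104309-fold above leaf (edgeR, adjusted p = 0.00259). Its seed libraries were far apart, and the bound was 224246 without seed 1 and 31092 without seed 2. Calls numbered 704 without leaf 1 and 456 without leaf 2.

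Panicle and seed differed at 1632 single-bin loci (28.4%, against 27.5% of all loci), with 645 higher in panicle (background 10.2%) and 987 higher in seed (17.3%). At 8-fold or more the numbers were 366 (6.37%, against 4.68% of all loci) and 784 (13.6% against 10.3%). Os12g0269200 had 1990 and 22899 CPM in seed. Panicle had no count, which puts seed at least 59206-fold above it (edgeR, adjusted p = 0.0033). The bound was 136725 without seed 1 and 11884 without seed 2. Os07g0214600 had 5475 and 8438 CPM in seed, none in panicle, 4.17 CPM in root, and at most 0.171 CPM in leaf, at least 39397-fold above panicle (edgeR, adjusted p = 0.00123). Both seed libraries were far above every other at these loci. Towards panicle, Os02g0662100 had 235 and 394 CPM in panicle, and seed had 2 counts, both in library 2. The ratio was 1239 (95% interval from counting error 343 to 10227; edgeR, adjusted p = 0.00155), 469 if seed 1 was left out, and at least 513 if seed 2 was. Leaf overlapped with panicle here, at 262 and 561 CPM, and root had 0.139 CPM. Os08g0460000, named above for leaf, was also higher in panicle than in seed, with a ratio of 489 (interval from counting error 87.8 to 19313; edgeR, adjusted p = 0.00448). Leaving out panicle 1, panicle 2 or seed 1 gave 168, 734 or 185, and leaving out seed 2 a bound of 101. Calls numbered 839 without panicle 1 and 830 without panicle 2.

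Root was compared with each tissue through its 1 library, on the assumption that it varies like the others. Leaf and root differed at 1041 single-bin loci (18.1%, against 18.4% of all loci), with 567 higher in leaf (background 10.9%) and 474 higher in root (7.51%). At 8-fold or more, 477 of the 5745 were higher in leaf (8.32% of all loci) and 379 of the 5745 in root (4.86% of all loci). Os08g0460000 and Os12g0563600 had no count in root and were at least 4854-fold and 3415-fold higher in leaf (edgeR, adjusted p = 0.00334 and 0.00162). Os12g0563600 had 1598 and 1352 CPM in leaf, 80.7 and 160 in panicle, and 162 and 115 in seed. Towards root, Os04g0438200 had 289 CPM in root and, elsewhere, 1 count in seed 1, at least 1956-fold above leaf (edgeR, adjusted p = 0.00162). Os04g0554600 had 150 CPM in root and no count in any other library, at least 1014-fold above leaf (edgeR, adjusted p = 0.00253). Neither root locus had a leaf count. Calls numbered 467 without leaf 1, 366 without leaf 2 and 1570 without seed 1.

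Panicle and root differed at 1573 single-bin loci (27.4%, against 27.9% of all loci), with 546 higher in panicle (background 11.0%) and 1027 higher in root (16.9%). At 8-fold or more, 334 were higher in panicle (5.81%, against 5.98% of all loci) and 883 in root (15.4% against 11.6%). Os03g0803066 had 56.9 and 202 CPM in panicle and no count in root, at least 288-fold higher (edgeR, adjusted p = 0.0338). Leaf (1.71 and 12.6 CPM) and seed (0.395 and 12.3 CPM) were lower, and in all 3 tissues library 2 had the higher value. This call was lost without panicle 2 (edgeR, adjusted p = 0.063), where the bound was 137, and without panicle 1 it was 485. For Os12g0563600 the bound was 276 (edgeR, adjusted p = 0.0015). Towards root, Os09g0409100 was at least 45570-fold higher (edgeR, adjusted p = 0.000924). Os10g0454200 had 874 CPM in root, 0.512 and 0.277 CPM in leaf, and no count in panicle or seed, at least 5218-fold above panicle (edgeR, adjusted p = 0.000842). The root library stood alone at both loci. Calls numbered 913 without panicle 1 and 967 without panicle 2.

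Seed and root differed at 1074 single-bin loci (18.7%, against 19.1% of all loci), with 452 higher in seed (background 9.58%) and 622 higher in root (9.53%). At 8-fold or more, 372 were higher in seed (6.48%, against 6.91% of all loci) and 460 in root (8.01% against 5.95%). Os11g0582400 was at least 36984-fold higher in seed (edgeR, adjusted p = 0.0112), 79509-fold without seed 1 and 11024-fold without seed 2. Os07g0213800 had 5216 and 9208 CPM in seed, 8.53 and 3.80 CPM in leaf, and no count in root, at least 16156-fold higher (edgeR, adjusted p = 0.00328). Towards root, Os09g0409100 exceeded seed by at least 20727-fold (edgeR, adjusted p = 0.00295). Os03g0103100 had 2154 CPM in root and at most 1.19 CPM in any other library, at least 5850-fold above seed, where it had no count (edgeR, adjusted p = 0.00295). Calls numbered 649 without leaf 1 and 656 without leaf 2. Bounds fell by construction when a library of the tissue without a count was left out. They were 0.712 and 0.288 times as large without leaf 1 and leaf 2, 0.433 and 0.567 times without panicle 1 and panicle 2, and 0.379 and 0.621 times without seed 1 and seed 2.

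**Figure D5:**
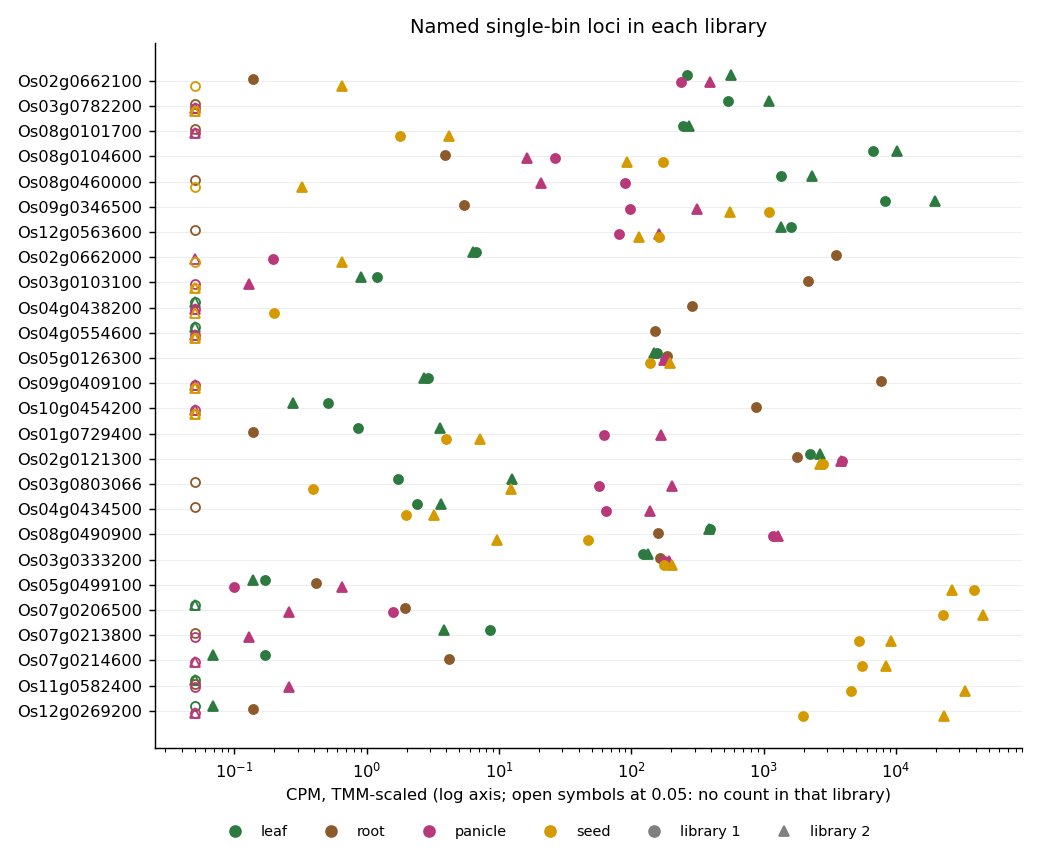
Level of the 26 named single-bin loci in each of the 7 libraries (horizontal axis, CPM on a log scale; colours are tissues, circles library 1 and triangles library 2), ordered by the tissue with the highest mean. Open symbols at 0.05 stand for no count in that library. The bottom 6 loci have 1990 to 45339 CPM in seed and at most 8.53 CPM elsewhere. Above them, the nearly even Os03g0333200 also has its highest mean in seed (189 CPM, against 184 CPM in panicle).

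In the 6 comparisons as a whole, single-bin loci were called about as often as all loci tested. Of the 5745 kept, 3297 (57.4%) were called in at least 1 comparison, against 57.8% of all kept loci. With all loci that had any count as the base and level matched, 39.3% of single-bin loci and 37.3% of loci with 2 or more bins were called. Comparisons with a tissue in common share its libraries and are not independent. The median log2 fold change of the kept single-bin loci was 0.06 for leaf over panicle, where that of loci with 2 or more bins was -0.02. For leaf over seed it was 0.09 against -0.06, for panicle over seed 0.00 against -0.14, for leaf over root 0.16 against 0.00, for panicle over root 0.14 against 0.14, and for seed over root 0.13 against 0.22. With RLE in place of TMM factors the median of all loci moved from 0.14 to 0.00 for panicle over root and from 0.20 to 0.03 for seed over root. With factors computed from the single-bin loci alone it moved from -0.12 to -0.26 for panicle over seed and from 0.14 to 0.03 for panicle over root.

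The IDs themselves carried a difference. Of the single-bin loci, 66.6% had an ID ending in 00, against 73.8% of loci of 2 bins and 87.0% of loci of 3 or more. Single-bin loci with such an ID reached 1 CPM in at least 1 library in 67.1% of cases (4921 of 7332), and those with another ending in 35.3% (1297 of 3677). Among loci with 2 or more bins the shares were 86.6% and 34.1%. Loci with another ending thus had about the same detection at any bin number, and the median level of such single-bin loci was 0.0525 CPM against 1.59 CPM.

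Single-bin loci were found on all 12 chromosomes, as read from the IDs, and made up from 26.0% of loci on chromosome 3 to 33.1% on chromosome 11. The share of them that reached 1 CPM in any library ran the other way, with 61.8% on chromosome 3, the highest, and 50.7% on chromosome 11, the lowest. In the order of the tables, 35.2% of loci that followed a single-bin locus were single-bin themselves, against 26.6% of those that followed a locus of 2 or more bins. Runs of 3 or more held 3239 of them, and the longest run had 16.

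Groups of neighbouring loci called above all other tissues are given for seed and root, a choice made with their values in view. The seed group had 8 loci among 12 consecutive loci of chromosome 7, from Os07g0213600 to Os07g0216700. They had 992 to 15639 CPM in seed and at most 6.17 CPM as the mean of any other tissue, and they held 21.1% and 14.5% of all single-bin counts in the seed libraries. In root, 6 of 7 consecutive loci of chromosome 10 from Os10g0452500 to Os10g0454300 formed a group with 58.7 to 874 CPM in root and means of at most 1.11 CPM elsewhere. Whether neighbours share near-identical sequence, which would make the split of reads between them uncertain, was not examined.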

How the data were processed

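The TruSeq RNA kit was used to purify mRNA, per the labels' protocols. The submitters' processing notes list TopHat2 2.0.4, Bowtie2, SAMtools 1.2, Cufflinks, HTSeq and bcl2fastq 1.8.4 and the build IRGSP-1.0, without roles. No source used here gives the strand setting or read filters, so reads of overlapping or antisense loci cannot be told apart. The deposited values are whole-number counts per exon bin, not normalized: 178317 bins of 37858 loci, with 11989260 to 49312943 bin counts per library. A further 5 rows that name no gene held 12.2% to 15.8% of counts and were left out.

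Each locus was represented by the bin with the largest mean CPM over the 7 libraries (4906489 to 17284150 counts per library). Loci were kept by filterByExpr (minimum count 10; 1 library was enough, since root has 1) and analysed in edgeR 4.0.16 under R 4.3.3 (scaling by TMM, glmQLFit, glmQLFTest; 1 model of 7 libraries and 4 tissue means; Benjamini-Hochberg over all loci of any bin number). TMM factors ran from 0.630 to 1.54. Each standard error was derived from the fold change (log2, absolute) and the root of F. The scripts were tested on simulated data with the same dispersion at every locus and no difference between libraries by bin number. That test does not show how calling performs at the spread of these libraries. Replicate libraries differed by far more than counting noise, with a chi-square of 17.5 to 67.7 per degree of freedom.

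Named loci were, per pair and direction, the 2 called single-bin loci of largest log2 fold change with 50 CPM or more in the tissue where they were higher and libraries that did not overlap; per tissue, the 2 most counted; and the 2 most even at 100 CPM or more. The rule for the members uses no count, but the members, lists and tests were chosen with earlier results of these data known. Alternatives were DESeq2 1.42.0, RLE factors, other filters, the sum over bins, the largest bin in each library, a replicate block, the libraries of both tissues only, a 4-fold minimum and each library left out. Marker and gene family lists need gene names and were not run.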

Additional observations from a re-analysis of the deposited data

Results flagged for a closer look

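Reads that the counting could not assign to 1 locus stand in a row outside the comparisons. They made up 12.1% of all counts in leaf 2, the highest library, and 8.44% in seed 1, the lowest. These counts were flagged because they are far above the limit of 3 counts in data that no comparison used. How many belong to single-bin loci that overlap another locus cannot be read from the tables.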

How the results depend on the processing

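The numbers of called single-bin loci stayed within 1.5 times under DESeq2, RLE factors, both other filters, the largest bin in each library and TMM factors from the single-bin loci alone, which was added after the data were seen. They moved further in these cases: with the libraries of both tissues only, leaf against root had 1961 and seed against root 697, and the loci above all others in panicle were 99 with the sum over bins and 91 at a 4-fold minimum. With each library left out the calls ran from 668 to 2275 for leaf against panicle, 456 to 1691 for leaf against seed, 830 to 1625 for panicle against seed, 366 to 1570 for leaf against root, 913 to 2249 for panicle against root and 649 to 1368 for seed against root. Loci above all others ran from 115 to 426 in leaf, 119 to 402 in root, 25 to 222 in panicle and 98 to 309 in seed. Of 372 refitted values of named loci, 0 turned direction. These loci were chosen as called and for the largest fold changes in the same libraries. Their refits therefore do not describe how stable calls are in general.

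The labels do not say whether a shared replicate number marks libraries made together, and this was not tested. Differences between library 2 and library 1 correlated weakly and positively across 8801 loci. The values were r = 0.18 for leaf and panicle, 0.32 for leaf and seed and 0.05 for panicle and seed. With the replicate block the calls were 1996, 1875, 1906, 1165, 1739 and 1278 for the 6 comparisons in the order of the text, and 344, 332, 209 and 239 loci were above all others in leaf, root, panicle and seed.

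The single-bin share of counts of leaf, root, panicle and seed was 13.6%, 14.9%, 14.1% and 24.6% with largest-bin counts. Without the 100 most counted loci, left out of the total as well, it was 4.61%, 4.80%, 4.89% and 6.31% (exact permutation test, p = 0.857). Seed 1 (4.48%) was then below leaf 2 (5.58%) and panicle 2 (5.16%). Root and panicle had 3.82% and 4.05% with the rows without a gene in the total. Without the 10 most counted single-bin loci of each tissue, also left out of the total, root had 3.62%, panicle 4.20% and seed 4.03%. With 1 library left out its permutation p ran from 0.2 to 0.467, and the means from 3.45% to 5.40% in leaf, 4.56% to 5.03% in panicle and 6.87% to 11.6% in seed. At 1 or more counts, leaf had 6455 detected loci, root 6149 and panicle 5891, and panicle had 5731 at the smallest depth; with 1 library left out p ran from 0.0889 to 0.2 and the means from 4165 to 4363, 3628 to 3765 and 4021 to 4167 in leaf, panicle and seed.

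The matched difference in detection turned to 0.86 points against loci of exactly 2 bins and to 6.85 with classes from the sum over bins; leaving out each library gave -2.27 to -1.41. That in restriction was 7.53 points with classes by raw count, 2.20 against loci of exactly 2 bins (classes from 8 to 512 CPM) and 3.48 with classes from the sum. It was 7.53 to 7.90 with 1 library left out. The median share in the highest tissue of kept single-bin loci, 54.5%, was 57.8% without TMM, 50.2% at a mean of 20 counts, and 54.2% to 55.2% with 1 library left out. The gap between loci of 1 and of 10 or more bins in library 2 over library 1 (0.46 in leaf, 0.59 in seed) was 0.68 and 0.79 with the sum over bins. The causes were not tested. The filter dropped 5264 single-bin loci, which were not tested; 2628 single-bin loci had no count in any library.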
